A study of Mus musculus with 8 samples.

Results

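Plasmacytoid dendritic cells (pDCs) are a dendritic cell type of the bone marrow and lymphoid organs that is known for rapid release of type I interferon on sensing viral nucleic acids. They carry B220, so a gate for pre-pro-B cells, the earliest B220-positive stage of B cell development, can hold them. Their identity is set by the E protein Tcf4 (E2-2), which Id proteins, chiefly Id2, oppose. The 8 genes described here, Siglech, Bst2, Tcf4, Ccr9, Runx2, Klk1, Cox6a2 and Pacsin1, are known for their expression in mouse pDCs and were taken by symbol from the 52550 genes of the deposited tables. Each symbol had 1 row. On GRCm38 Siglech, Klk1 and Cox6a2 lie on chromosome 7, Runx2 and Pacsin1 on chromosome 17, Bst2 on chromosome 8 and Ccr9 on chromosome 9, and all 8 are protein-coding.

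RNA was sequenced from pre-pro-B cells (from a gate that includes AA4.1+, B220+ and CD24-) and pro-B cells (B220+CD43+IgM-) sorted from the bone marrow of untreated C57BL/6J mice. The mice were wild type (WT) or lacked lactoferrin (Lf-/-), an iron-binding protein encoded by Ltf, and the WT mice were age-matched littermates. The 7 libraries were WT pre-pro-B replicates 1 and 2, Lf-/- pre-pro-B replicates 1 and 2, WT pro-B replicate 1, and Lf-/- pro-B replicates 1 and 2. WT pro-B replicate 2 was not analysed here, and the labels do not say whether replicates came from separate mice, so p-values measure only the spread between these libraries. Values are FPKM, fragments scaled to transcript length and library size, a level per length that can be compared between genes.

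Ltf lay between 2140 and 2730 FPKM in the 3 WT libraries and between 88.2 and 168 FPKM in the 4 Lf-/- libraries, lower in every Lf-/- library. The step height of low values gave between 10800000 and 15300000 fragments, to the nearest 100000, in 6 libraries. Lf-/- pre-pro-B replicate 2 stood apart: its depth could not be read, 12172 genes were above 0 there against 19477 to 20250 in the others, and 14 of 2244 genes at 10 FPKM or more in all other libraries were listed at 0. Granule genes of neutrophils (18 genes) made up between 25.3% (Lf-/- pre-pro-B replicate 2) and 53.1% (WT pro-B) of the summed FPKM of a library. The 14 early B lineage genes made up at most 0.436% of a library.

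The summed level of the pDC genes was lower in the 3 WT libraries and in Lf-/- pre-pro-B replicate 1 than in the other 3 Lf-/- libraries. It was 63.5 and 80.8 FPKM in WT pre-pro-B cells, 68.2 and 447 in Lf-/- pre-pro-B cells, 94.0 in WT pro-B cells, and 239 and 394 in Lf-/- pro-B cells. That is at most 0.0644% of a library. For 4 of the genes (Siglech, Ccr9, Runx2 and Pacsin1) the 2 Lf-/- pre-pro-B libraries held the lowest and the highest of the 7 values. Cox6a2 had the highest level of the 8 in every library.

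Siglech, a sialic acid-binding lectin of the cell surface that is used to recognise mouse pDCs, measured 3.94 and 7.31 FPKM in WT and 1.98 and 43.8 in Lf-/- pre-pro-B libraries. The WT pro-B library gave 7.76 FPKM and the Lf-/- pro-B libraries 16.7 and 34.0. The 2 Lf-/- pre-pro-B values enclosed all others and were 22.1-fold apart, against 1.86-fold between the WT pre-pro-B libraries. Bst2, also known as tetherin or PDCA-1, holds budding virus at the membrane and is an antigen used to sort pDCs. Its pre-pro-B values were 18.6 and 13.1 FPKM (WT) and 25.8 and 104 (Lf-/-), and its pro-B values were 16.1 (WT) and 76.9 and 82.5 (Lf-/-). Each Lf-/- library lay above each WT library. Ccr9, the receptor for the gut and thymus chemokine Ccl25, stayed below 1 FPKM in every library, from 0.160 in Lf-/- pre-pro-B replicate 1 to 0.976 in Lf-/- pre-pro-B replicate 2.

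Of the transcription factors, Tcf4 was at 0.666 and 0.501 FPKM in WT pre-pro-B cells, 0.939 and 4.54 in Lf-/- pre-pro-B cells, 0.542 in WT pro-B cells, and 1.91 and 1.87 in Lf-/- pro-B cells. Like Bst2, it was higher in each Lf-/- library than in each WT library. Runx2, a runt-domain factor that acts in the exit of pDCs from the marrow and in bone formation, was at 2.19 and 2.28 FPKM in WT pre-pro-B cells and 2.22 in WT pro-B cells. These 3 values lay within 1.04-fold of each other. The Lf-/- values were 0.981 and 13.2 FPKM at the pre-pro-B stage and 4.33 and 3.22 at the pro-B stage. The 8 bone and stromal genes summed to at most 3.13 FPKM in a library, and Bglap, the osteocalcin gene of osteoblasts, was listed at 0 in all 7.

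Cox6a2, a subunit of cytochrome c oxidase known from heart and skeletal muscle, was at 24.9 and 41.9 FPKM in WT pre-pro-B cells, 33.3 and 277 in Lf-/- pre-pro-B cells, 35.4 in WT pro-B cells, and 80.7 and 159 in Lf-/- pro-B cells. The 7 striated muscle genes summed to at most 3.14 FPKM, with Mb (myoglobin) and Myh4 listed at 0 in all 7 libraries. Pacsin1, an adaptor of endocytosis, was at 0.351 and 0.578 FPKM in WT pre-pro-B cells, 0.199 and 3.69 in Lf-/- pre-pro-B cells, 0.638 in WT pro-B cells, and 2.74 and 3.14 in Lf-/- pro-B cells. Klk1, a tissue kallikrein and serine protease, departed from the others. The WT libraries held 12.4 and 14.9 FPKM (pre-pro-B) and 30.7 (pro-B), and Lf-/- pro-B cells 54.8 and 110, but Lf-/- pre-pro-B replicate 1 held 4.81 and replicate 2 was listed at 0, where the other 7 genes had their highest values.

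**Figure D1:**
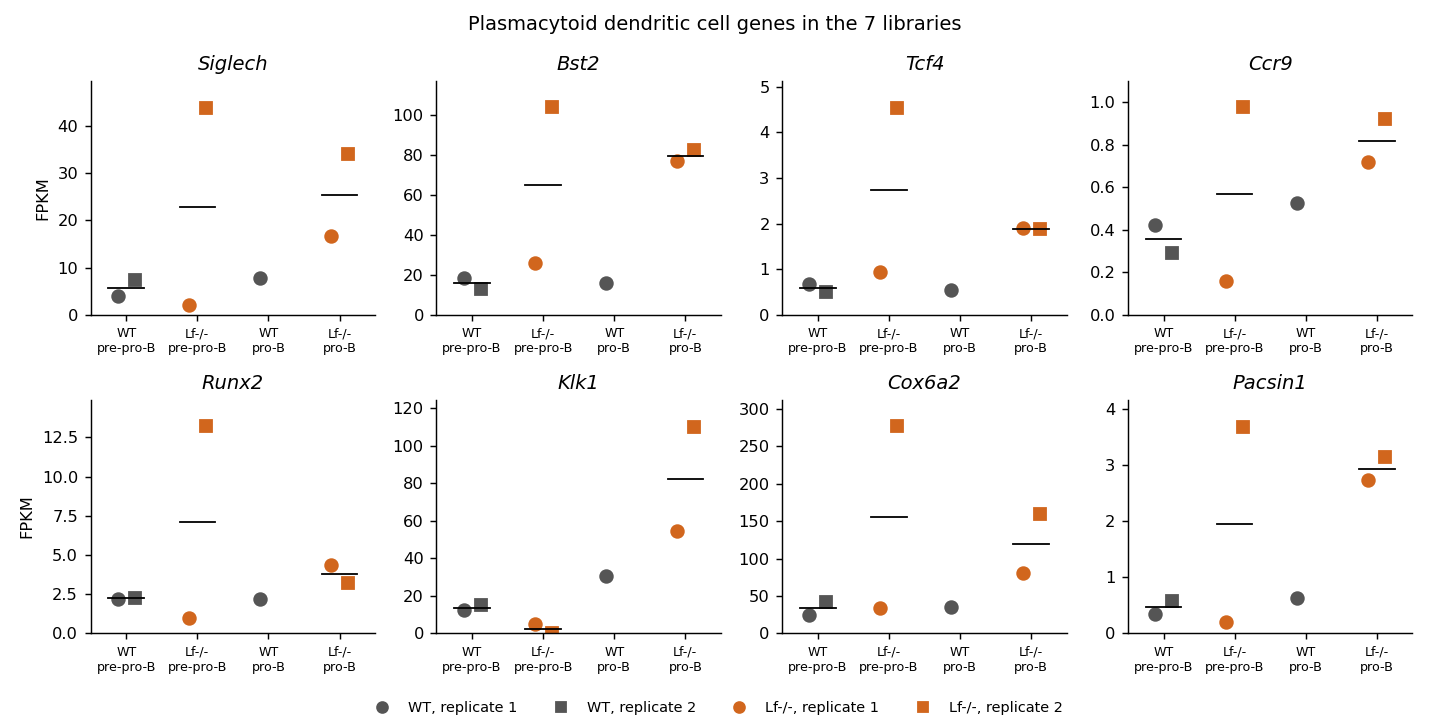
FPKM (vertical axis, linear from 0, a separate scale for each gene) of the 8 genes in the 4 groups; points are libraries (circle replicate 1, square replicate 2, gray WT, orange Lf-/-) and black lines are means of 2 libraries. For 7 genes the highest point is Lf-/- pre-pro-B replicate 2, while Klk1 is listed at 0 there.

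Over the 7 libraries, 7 of the 8 genes were highest in Lf-/- pre-pro-B replicate 2. Of the 7 that passed the filter of at least 1 FPKM in at least 2 libraries (all but Ccr9), 6 did so, against 38.0% of all 10793 genes that passed. The lowest value was in Lf-/- pre-pro-B replicate 1 for Siglech, Runx2 and Pacsin1 among the 7, against 11.4% of all genes, and for Ccr9. Bst2 and Tcf4 were above every WT library in every Lf-/- library, 2 of 7 against 9.87% of all genes. With Lf-/- pre-pro-B replicate 1 left aside, this held for 6 of 7, against 21.7%. Since that replicate held the lowest values of Siglech, Runx2 and Pacsin1, part of this rise follows from leaving it aside. Tcf4 and Pacsin1, both among the 6, reached 1 FPKM in Lf-/- libraries alone and so passed the filter through the group in which they were high.

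Relative to Siglech, the genes kept unequal proportions. Pacsin1 held the narrowest range, between 0.0791 and 0.164 of the Siglech level in every library. Klk1 was between 2.04 and 3.96 times Siglech in 6 libraries and 0 in Lf-/- pre-pro-B replicate 2. Cox6a2 was 4.57 to 6.33 times Siglech in 6 libraries and 16.8 times in Lf-/- pre-pro-B replicate 1. Bst2 was 1.79 to 4.73 times Siglech and Tcf4 0.0548 to 0.169 times in 6 libraries, with the highest ratio of each also in Lf-/- pre-pro-B replicate 1.

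The starts of these genes are shown because most of them moved together across the libraries and because Tcf4 is an E protein, whose family binds the E-box CANNTG and, among its forms, CAGGTG. The 250 bases upstream of the start were taken from RefSeq (GRCm38.p6) for 6 of the 8 genes, and Tcf4 and Cox6a2 are not shown. CAGGTG or its reverse complement CACCTG was present in 4 of the 6, against 17.2% of 32851 promoters, and CANNTG, which includes it, is in 66.2% of promoters. The matches lie 20 bases upstream of the start in Siglech (chr7:55767934-55768183, plus strand), 205 in Bst2 (chr8:71537473-71537722, minus strand), 85 in Ccr9 (chr9:123766961-123767210, plus strand) and 87 in Klk1 (chr7:44225110-44225359, plus strand). No match was in the window of Runx2 or Pacsin1. The sequences read 5′ to 3′ along the gene, and capitals mark the motif.
Siglech: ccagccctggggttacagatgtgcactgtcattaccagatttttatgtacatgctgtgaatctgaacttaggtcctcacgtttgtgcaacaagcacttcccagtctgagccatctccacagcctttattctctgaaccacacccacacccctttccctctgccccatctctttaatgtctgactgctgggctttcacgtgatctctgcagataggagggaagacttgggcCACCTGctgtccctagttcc
Bst2: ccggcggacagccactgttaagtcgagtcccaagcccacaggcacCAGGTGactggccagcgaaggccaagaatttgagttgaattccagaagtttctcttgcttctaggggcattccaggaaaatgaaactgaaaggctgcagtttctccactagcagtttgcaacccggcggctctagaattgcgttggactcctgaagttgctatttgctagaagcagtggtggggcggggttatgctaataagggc
Ccr9: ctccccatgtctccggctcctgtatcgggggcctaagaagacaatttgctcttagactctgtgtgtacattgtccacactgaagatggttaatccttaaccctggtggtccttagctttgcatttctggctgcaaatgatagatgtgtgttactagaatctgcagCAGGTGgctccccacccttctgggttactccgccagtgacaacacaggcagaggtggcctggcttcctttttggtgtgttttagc
Klk1: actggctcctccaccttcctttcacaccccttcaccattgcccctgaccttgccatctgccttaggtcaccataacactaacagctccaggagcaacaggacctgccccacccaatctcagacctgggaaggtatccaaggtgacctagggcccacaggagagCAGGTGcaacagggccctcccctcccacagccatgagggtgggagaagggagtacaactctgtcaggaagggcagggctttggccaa
These matches describe the letters and are not evidence of binding.

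The first comparison asked whether the pDC genes differed between Lf-/- and WT pre-pro-B cells. Bst2 (1.68 ± 0.72 SE), Cox6a2 (1.55 ± 1.0), Siglech (0.85 ± 1.25) and Runx2 (0.71 ± 0.95) were higher in Lf-/- cells as differences of log2(FPKM + 1), a scale that understates the change of low genes. Klk1 was lower, by -2.60 ± 0.87. Tcf4 (1.05), Pacsin1 (0.70) and Ccr9 (0.16) were below the filter and had values with no call. Over all 8 genes the median difference was 0.78, against 0.04 over all genes tested.

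None of the 5 genes tested passed an adjusted p of 0.05 (limma, Benjamini-Hochberg over 9720 genes, lowest adjusted p of all genes 0.281), and adjusted p was 0.941 for Klk1, Bst2 and Cox6a2, 0.943 for Runx2 and 0.945 for Siglech. At an unadjusted p under 0.05, the threshold the study used, 1 of 5 passed (Klk1, lower), against 2.92% of all genes and 0.926% in this direction. The groups did not overlap for Bst2 (higher) and Klk1 (lower), 2 of 5, against 33.2% of all genes, 15.5% higher and 17.7% lower. The other 3 tested genes had an Lf-/- replicate on each side of the WT values or within them. Without Lf-/- pre-pro-B replicate 2, the differences were -1.10 for Siglech, -0.71 for Runx2, 0.04 for Cox6a2, 0.69 for Bst2 and -1.33 for Klk1, and without replicate 1 they were 2.81, 2.13, 3.06, 2.66 and -3.87. In the former fit Siglech, Runx2 and Klk1 were lower at an unadjusted p under 0.05, 3 of 5 against 8.07% of all genes. In the latter all 5 passed an adjusted p of 0.05, as did 3338 of 9143 genes. Each of these fits estimated the spread from the WT pair alone.

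Markers of other cells moved with the genotypes. The 14 early B lineage genes summed to 580 to 631 FPKM in WT and 2450 to 3630 FPKM in Lf-/- pre-pro-B cells. Of 12 tested 8 passed an unadjusted p of 0.05, all higher, against 2.92% of all genes in either direction. Rag1, among the 8, reached 1 FPKM in Lf-/- cells alone (0.166 and 0.162 FPKM in WT, 1.41 and 1.81 in Lf-/-). It thus passed the filter through the group in which it was high. The 11 conventional dendritic cell genes summed to 26.4 to 44.6 FPKM in WT and 94.6 to 124 in Lf-/- cells, carried mostly by Ccr7 (28.3 and 6.71 FPKM in WT, 77.5 and 71.9 in Lf-/-), which B cells also express. Their median difference was -0.12 with 5 of 11 positive, among them Cd209a (4.82 and 10.6 FPKM in WT, 2.37 and 35.1 in Lf-/-). The more specific Zbtb46, Xcr1, Clec9a, Batf3 and Itgax were each lower on average. They stayed below 1 FPKM in every library and were listed at 0 in Lf-/- pre-pro-B replicate 2. In replicate 1, Zbtb46 (0.181 FPKM) and Xcr1 (0.214) lay between the WT values, and Clec9a (0.175), Batf3 (0.332) and Itgax (0.103) lay below them. The 12 T and NK cell genes summed to 1000 to 1320 FPKM in WT and 473 to 563 in Lf-/- cells, but this sum is mostly Nkg7 (965 and 1280 FPKM in WT, 544 and 324 in Lf-/-). Of the 12, 5 were higher on average in Lf-/- cells, among them Gzma and Lck, at 55.6 and 34.4 FPKM in Lf-/- replicate 2 against at most 4.16 and 3.38 in WT, while Cd3g, Cd5, Klrb1c, Ncr1 and Il2rb were listed at 0 there. The part of these in the pDC gene values was not tested, and in bulk RNA fewer cells of a type and less RNA per cell cannot be told apart.

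**Figure D2:**
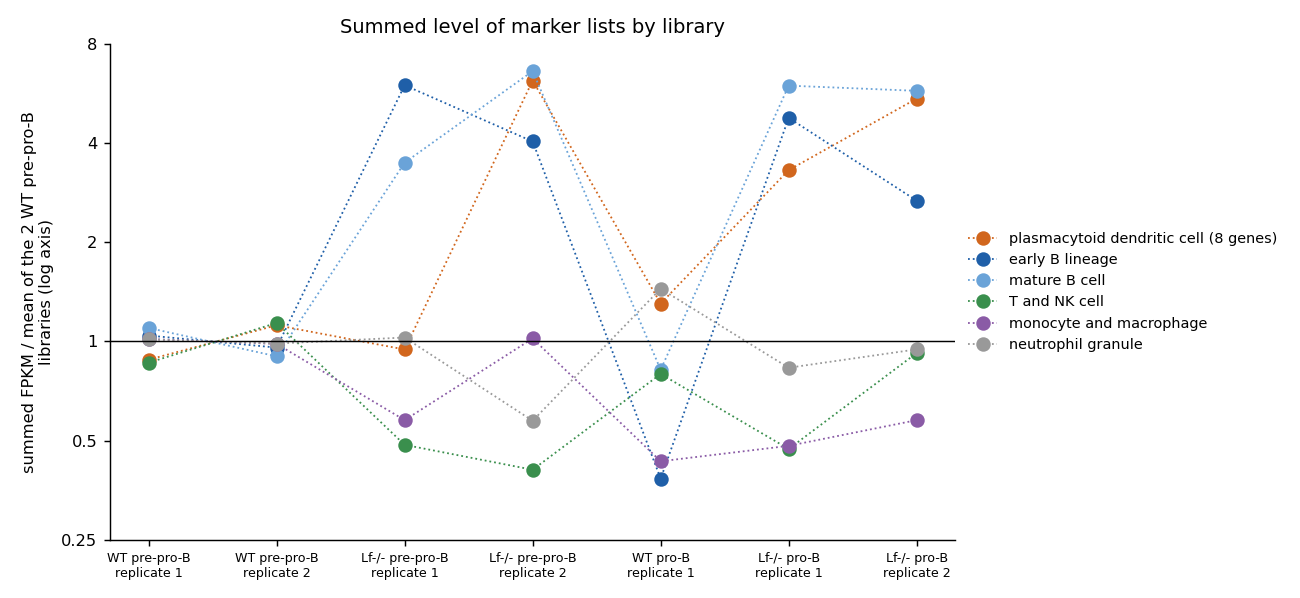
Summed FPKM of each marker list divided by its mean in the 2 WT pre-pro-B libraries (log2-spaced vertical axis) in the 7 libraries; each color is a list and dotted lines join points of 1 list without implying an order. The pDC genes reach 447 FPKM in Lf-/- pre-pro-B replicate 2 while replicate 1, at 68.2, lies within the WT pre-pro-B range. The T and NK cell sum is mostly Nkg7.

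In pro-B cells all 8 genes were higher in both Lf-/- libraries than in the WT library, among the 7 that passed the filter against 75.3% of all genes. The log2 differences were 2.24 for Bst2, 1.65 for Cox6a2, 1.51 for Siglech, 1.31 for Klk1, 1.26 for Pacsin1, 0.91 for Tcf4 and 0.56 for Runx2, and Ccr9 (0.25) was below the filter. Klk1 thus lay above WT here and below it at the earlier stage. With 1 WT library there was no test and no replicate check. Bst2, Cox6a2, Siglech, Klk1 and Pacsin1, 5 of the 7, differed at least 2-fold, both Lf-/- libraries being on the same side of WT, against 13.5% of all genes, and 12.4% of all genes were higher. Pacsin1 and Tcf4 passed the filter through Lf-/- libraries alone, and of the 5 other genes 4 were 2-fold apart. The median difference of the 8 was 1.29, against 0.48 over all genes. Of the genes that were apart 91.7% were higher, and 50.7% with median-ratio scaling, which brought the median of all genes to about 0 and left 1 of the 7 genes 2-fold apart, with Bst2 at 1.59, Cox6a2 at 0.99, Siglech at 0.89 and Runx2 at 0.06. Other lists moved as well: the early B lineage genes summed to 232 FPKM in the WT library and 1620 to 2890 in the Lf-/- libraries, and the mature B cell genes to 50.1 and 352 to 365, with 9 of 9 considered at least 2-fold higher (median over the list 2.29). Of the T and NK cell genes 8 of 11 were (median 1.61). Among the genes so counted, Cxcr5 (at most 0.711 FPKM in WT), Cd3e (0.346) and Klrb1c (0.836) reached 1 FPKM in Lf-/- libraries alone. These genes passed the filter through the group in which they were high. The part of these lists in the pDC gene values was not tested.

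With both stages in 1 fit and stage as a covariate, 3 WT against 4 Lf-/- libraries, Bst2 (1.90 ± 0.46 SE), Tcf4 (0.99 ± 0.39) and Cox6a2 (1.59 ± 0.65) were higher in Lf-/- cells at an unadjusted p under 0.05. That was 3 of 7 genes, against 7.17% of all genes and 6.48% in this direction. Without Tcf4 and Pacsin1, which reached 1 FPKM in Lf-/- libraries alone, it was 2 of 5. Under each other scaling, filter, pseudocount or block the count was 2. It was 2 of 8 with no filter (4.21% of all genes), 2 of 3 with 1 FPKM in every library (10.6%) and 2 of 7 otherwise. In the main fit 0 of 7 passed the adjusted threshold, against 0.185% of all genes. Adjusted p was 0.266 for Bst2, 0.655 for Tcf4 and 0.666 for Cox6a2. Siglech (1.11 ± 0.81), Pacsin1 (0.93 ± 0.46) and Runx2 (0.65 ± 0.60) were higher and Klk1 (-1.03 ± 0.86) lower without passing. The median of the 8 genes was 0.96, against 0.21 over all genes. Without Lf-/- pre-pro-B replicate 1, Bst2 (2.45) reached an adjusted p of 0.0297, and 6 of 7 passed an unadjusted p of 0.05, against 28.7% of all genes. Without replicate 2 Siglech was at 0.20 and Runx2 at -0.07. The count was 1 of 7 without WT pre-pro-B replicate 1, against 4.54% of all genes, and 1 of 7 without Lf-/- pro-B replicate 2, against 6.01%.

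**Figure D3:**
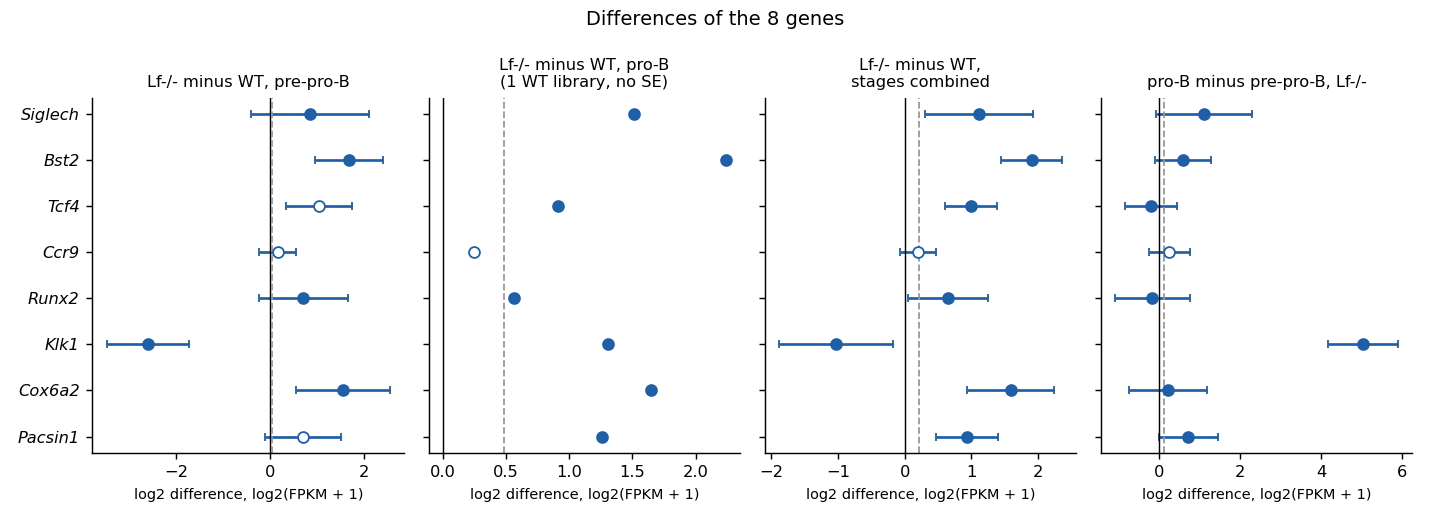
Log2 differences (horizontal axes, log2(FPKM + 1) scale, ranges differ between panels) of the 8 genes in 4 comparisons; bars are ± 1 SE, filled points passed the filter on low values, and the dashed line is the median of all genes tested. Klk1 is the gene below 0 in pre-pro-B cells, at -2.60, and lies above 0 in pro-B cells, at 1.31.

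Between stages within Lf-/- cells, Klk1 was higher in pro-B than in pre-pro-B cells by 5.03 ± 0.87 SE (limma, adjusted p = 0.528). Its groups did not overlap, 1 of 7 genes against 31.1% of all genes and 26.2% in this direction. It was the 1 gene of 7 tested at an unadjusted p under 0.05, against 3.40% of all genes and 2.73% in this direction. The difference was 3.76 without Lf-/- pre-pro-B replicate 2, in which Klk1 is listed at 0, and 6.30 without replicate 1. Each of these fits left 1 pre-pro-B library and estimated the spread from the pro-B pair alone. The other tested genes were all higher in pro-B cells without replicate 2 and all lower without replicate 1, as Siglech was (3.06 and -0.84). With no library left out, the other 6 tested genes had differences between -0.18 (Tcf4) and 1.11 (Siglech), and their groups overlapped. No gene of all 10311 passed the adjusted threshold. In the 7 libraries the difference of the genotype effects between stages was 3.91 ± 1.27 SE for Klk1 (limma, adjusted p = 0.990). It was the 1 gene of 7 at an unadjusted p under 0.05, against 2.74% of all genes and 2.53% in this direction. The Klk1 difference was 2.64 without Lf-/- pre-pro-B replicate 2, 5.18 without replicate 1 and 3.41 without Lf-/- pro-B replicate 2.

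Other pDC genes were described from a list of 31 written from their known roles. In pre-pro-B cells 5 of 28 tested were higher at an unadjusted p under 0.05 and 0 were lower, against 2.92% of all genes in either direction: the transcription factor Spib (2.20 ± 0.66), the corepressor Cbfa2t3 (1.55 ± 0.61), the surface protein Ly6d (2.91 ± 0.49), the sodium pump subunit Atp1b1 (1.91 ± 0.65) and the adaptor Blnk (1.78 ± 0.42). Spib, Ly6d and Blnk are also genes of the B lineage, as is Dntt, which is named below for pro-B cells. Cbfa2t3 reached 1 FPKM in Lf-/- libraries alone (0.821 and 0.691 FPKM in WT, 2.15 and 7.34 in Lf-/- pre-pro-B cells). It thus passed the filter through the group in which it was high, here and with stages combined, and the counts were not redone without it. The list's median was 0.67, against 0.04 over all genes. In pro-B cells 14 of 29 were at least 2-fold higher, against 12.4% of all genes (3.86% with median-ratio scaling, for which the list was not recounted), including Spib (2.06), Irf8 (1.43), Ly6d (2.77) and Dntt (3.28). With stages combined 11 of 29 were higher and 2 lower, against 6.48% of all genes higher and 7.17% in either direction, and Ly6d (2.85 ± 0.30, adjusted p = 0.0136) passed the adjusted threshold. Between stages in Lf-/- cells 0 of 29 were higher and 1, Ly6d, was lower (-1.48 ± 0.47) at an unadjusted p under 0.05. Of all genes 3.40% passed it in either direction, so this count is near the share of all genes. None of the 29 passed the adjusted threshold.

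Spib did not follow Siglech. Its pre-pro-B values were 20.8 and 8.81 FPKM (WT) and 107 and 41.0 (Lf-/-), so that its highest value was in the library with the lowest Siglech. Cd300c and Lag3, surface proteins of pDCs among other cells, did follow Siglech there, with 1.22 and 21.8 FPKM and with 0.548 and 20.3 FPKM in the 2 Lf-/- pre-pro-B libraries. Of the 7 genes of nucleic acid sensing, 0 of 6 tested passed an unadjusted p of 0.05 in pre-pro-B cells, against 2.92% of all genes. Pld4, an endolysosomal exonuclease, was at 33.1 and 170 FPKM in the Lf-/- pre-pro-B libraries against 35.6 and 44.8 in WT. Of the E protein and Id genes, Id3 (1.74 ± 0.48) was higher in Lf-/- pre-pro-B cells at an unadjusted p under 0.05, and Tcf3 (1.09 ± 0.44) and Id2 (0.39 ± 0.42) were not past it.

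Interferon genes gave little signal. The 5 Ifna genes were listed at 0 in all 7 libraries, and Ifnb1 was between 0.0876 and 0.123 FPKM in the 3 WT libraries and listed at 0 in the Lf-/- libraries. Values this low rest on few fragments, so no genotype difference is read from them. Of the 10 interferon-stimulated genes, 0 of 6 tested passed an unadjusted p of 0.05 in pre-pro-B cells, against 2.92% of all genes. Ifit3 (1.17) and Rsad2 (1.09), 2 of 7, were at least 2-fold higher in Lf-/- pro-B cells, against 12.4% of all genes.

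Across the 7 libraries on the log2(FPKM + 1) scale, the likeness to Siglech was a Pearson r of 0.96 for Pacsin1, 0.95 for Ccr9, 0.94 for Cox6a2, 0.85 for Runx2, 0.81 for Bst2 and Tcf4 and 0.03 for Klk1. Without Lf-/- pre-pro-B replicate 2, r was 0.98 for Klk1 and 0.69 for Tcf4. These are descriptions over 7 and 6 libraries that share genotype and depth differences, and over 10793 genes the median r with Siglech was 0.29. The 10 genes outside the list with the highest r were Gm21762 (0.984), Spatc1 (0.982), Upb1 (0.976), D13Ertd608e (0.972), Lrg1 (0.970), 6430548M08Rik (0.966), Cd7 (0.966), Pltp (0.965), Rnf135 (0.965) and Klra17 (0.962). Gm21762 was at 2.16, 3.87, 0.381 and 28.1 FPKM in the pre-pro-B libraries in the order above, and at 6.68, 15.2 and 26.9 in the pro-B libraries. Cd7, a surface protein, was at 8.08 and 161 FPKM in the 2 Lf-/- pre-pro-B libraries.

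**Figure D4:**
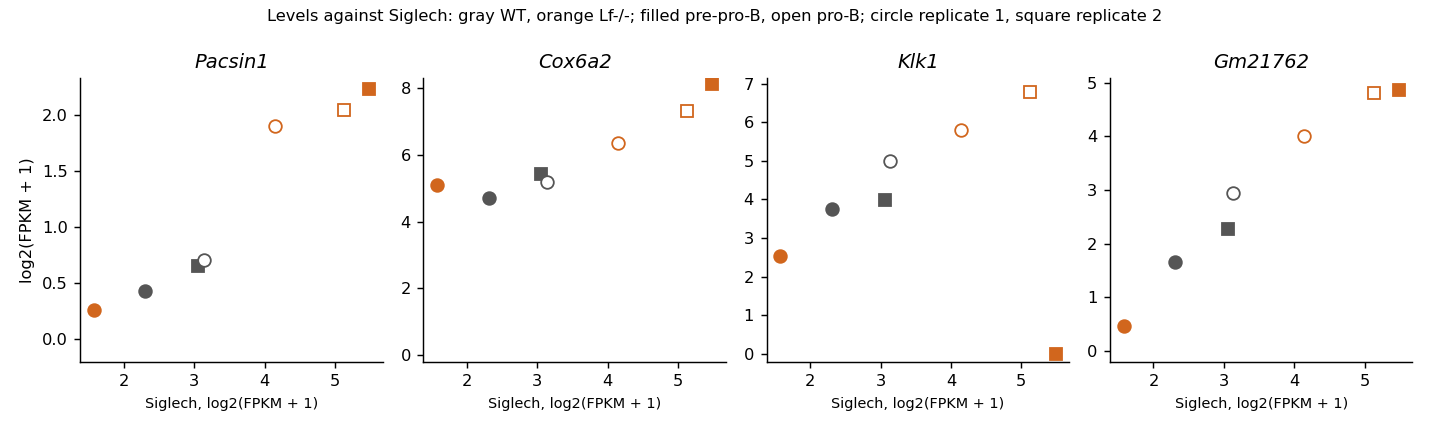
Levels of Pacsin1, Cox6a2, Klk1 and Gm21762 (vertical axes) against Siglech (horizontal axes), both as log2(FPKM + 1), with 1 point per library. Klk1 follows Siglech in 6 libraries (r = 0.98) and is listed at 0 in the library with the highest Siglech.

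Some values rest on shared sequence. The strand setting of the counting was not given in the sources used here, and Cox6a2 overlaps Itgad, Runx2 overlaps Runx2os1 and Ccr9 overlaps Slc6a20a on opposite strands. Slc6a20a was between 0 and 0.736 FPKM, a range like that of Ccr9, which also overlaps Gm17200 (at most 0.306 FPKM) on its own strand, so Ccr9 values are uncertain. Itgad had 5.01 FPKM in Lf-/- pre-pro-B replicate 2 and between 0.178 and 0.344 FPKM elsewhere, and Runx2os1 was at 3.22 there and between 0.227 and 2.18 elsewhere. Transcripts of Klk1 are 94.4% identical to Klk1b5 over 957 bases, and Klk1b5 was at most 0.769 FPKM in a library. At the readable depths, the lowest values rest on few fragments, with at most 18 for Ccr9 and 14 for Pacsin1 in Lf-/- pre-pro-B replicate 1.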

How the data were processed

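Total RNA of B cell precursors at both stages, isolated with a mirVana kit after sorting from marrow of either genotype, was sequenced on a NovaSeq instrument. The authors deposited 1 table of FPKM values per library for 52550 genes, of which 52403 were matched to GENCODE M21. The submitters' processing notes name GRCm38, TopHat, Cufflinks, HTSeq and DESeq, with no role or version. FPKM values are not counts, so values were analysed as log2(FPKM + 1), with genes kept at 1 FPKM or more in at least 2 of the libraries compared. The tests used limma 3.58.1 in R 4.3.3, two-sided, with its mean-variance trend, and p-values were adjusted by Benjamini-Hochberg over all genes tested. Pro-B genotypes had no test, and a gene was called apart at 1 or more on the log2 scale with both Lf-/- values on one side of WT. Filters, scalings and pseudocounts can each move these differences. The fits were tested on simulated data. Levels were not given as counts, so counting intervals were not calculated, and the fragments quoted are upper estimates from exon length.

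The 8 genes and all gene lists were chosen with earlier results of these data known. The rule for named genes took all 8, at most 4 genes per other pDC, E protein and interferon list by size of difference, the 10 genes most correlated with Siglech, and Ltf as a check. Among the genes so named, Spib, Cd300c, Lag3, Pld4, Gm21762 and Cd7 were chosen for library values after their values were seen. Transcripts were compared with blastn 2.17.0, and tables and plots were made in Python 3.11.15 (matplotlib 3.10.9, scipy 1.17.1, pandas 2.3.3, numpy 2.4.6). The alternatives were median-ratio scaling, quantile normalization, a pseudocount of 0.1, no filter, 1 FPKM in every library, a block for the replicate number, one fit over all 7 libraries, and each replicate left out. One marker of the early B lineage list is not reported here on its own.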

Additional observations from a re-analysis of the deposited data

Results flagged for a closer look

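Klk1 had genotype differences of opposite sign at the 2 stages. It was lower in Lf-/- than in WT pre-pro-B cells (12.4 and 14.9 FPKM in WT, 4.81 and listed at 0 in Lf-/-) and higher in Lf-/- pro-B cells (30.7 FPKM in WT, 54.8 and 110 in Lf-/-). The difference between the 2 effects was 3.91 on the log2 scale (SE 1.27, limma, adjusted p = 0.990 over 10793 genes), so it did not pass the adjusted threshold. It was 2.64 without Lf-/- pre-pro-B replicate 2 and 3.27 with median-ratio scaling. Without Lf-/- pre-pro-B replicate 2 the opposite signs were not particular to Klk1. Siglech (-1.10) and Runx2 (-0.71) then also lay below WT in pre-pro-B cells, against 1.51 and 0.56 in pro-B cells. Their differences of effects were 2.61 and 1.26. Bst2 (0.69) and Cox6a2 (0.04) stayed above WT in pre-pro-B cells.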

How the results depend on the processing

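Of 340 alternative values of 7 genes (Ccr9, below the filter, was not included), 293 kept their direction and side of the threshold (or moved by less than the replicate spread), 24 changed direction, 13 newly passed the adjusted threshold and 10, all in pro-B cells, moved by more than the spread; the cause was not tested.

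In pre-pro-B cells 284 genes passed an unadjusted p of 0.05, against 649 with no filter, 532 with the replicate block, 518 with all 7 libraries in one fit and 140 to 4416 with a replicate left out. The 0 past the adjusted p became 65 with the block and 0 to 3338 with a replicate left out. The 1 pDC gene called of 5 became 2 with median-ratio scaling (3.24% of all genes) or all 7 libraries (5.33%), and 3 with the block (5.47%). It became 0 with a pseudocount of 0.1 (2.22%) or 1 FPKM in every library (3.23%).

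In pro-B cells the 1462 genes apart became 822 with median-ratio scaling, 765 with quantile normalization, 2853 with a pseudocount of 0.1 and 467 by p-value with all 7 libraries in one fit. The 5 pDC genes became 1 with median-ratio scaling (7.62% of all genes), 2 with quantile normalization (7.09%) and 1 with all 7 libraries (4.33%).

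Between stages in Lf-/- cells the 351 genes became 171 with a pseudocount of 0.1, 746 with no filter, 143 with 1 FPKM in every library, 701 with the block, 600 with all 7 libraries and 140 to 4140 with a replicate left out. The 0 past the adjusted p became 84 with the block and 10 to 3043 with a replicate left out. The 1 pDC gene became 0 with 1 FPKM in every library, which removes Klk1.

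With stages combined the 774 genes became 425 to 3033 with a replicate left out. The 20 past the adjusted p became 7 with median-ratio scaling, 10 with quantile normalization, 9 with a pseudocount of 0.1, 0 with no filter, 63 with 1 FPKM in every library and 0 to 123 with a replicate left out. The 3 pDC genes became 2 under each other scaling, pseudocount, filter and the block, where 4.21% to 10.6% of all genes passed. With a replicate left out they became 1 (without WT pre-pro-B replicate 1, 4.54% of all genes) to 6 (without Lf-/- pre-pro-B replicate 1, 28.7%).

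For the difference of genotype effects the 296 genes became 139, 170, 195, 1608 and 152 with median-ratio scaling, quantile normalization, a pseudocount of 0.1, no filter and 1 FPKM in every library, and 90 to 2920 with a replicate left out. The 0 past the adjusted p became 122 with no filter and 0 to 561 with a replicate left out. The 1 pDC gene, Klk1, became 0 with median-ratio scaling, a pseudocount of 0.1, no filter or 1 FPKM in every library.

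Leaving out a replicate, log2 differences of pre-pro-B genotypes ran from -1.10 to 2.81 for Siglech and -0.71 to 2.13 for Runx2. Stage differences ran from -0.84 to 3.06 for Siglech, -0.38 to 1.59 for Bst2, -0.94 to 0.57 for Tcf4, -1.58 to 1.26 for Runx2 (0.02 with a pseudocount of 0.1), -1.28 to 1.73 for Cox6a2 and -0.25 to 1.71 for Pacsin1. With stages combined, Runx2 ran from -0.07 to 1.34. The difference of genotype effects ran from -1.30 to 2.61 for Siglech, -0.43 to 1.55 for Bst2, -0.90 to 0.61 for Tcf4, -1.57 to 1.26 for Runx2 (0.03 with a pseudocount of 0.1), -1.41 to 1.60 for Cox6a2 (-0.37 with median-ratio scaling, -0.41 with quantile normalization) and -0.42 to 1.55 for Pacsin1.

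Deviations of same-numbered libraries from their group means correlated at 0.039, -0.013 and 0.053 over genes. The labels do not say whether equal replicate numbers mark the same mouse. These correlations cannot decide it, since each rests on groups of 2 libraries and some cross genotypes. With the replicate block the Klk1 differences stayed at -2.60 in pre-pro-B cells and 5.03 between stages. Both then passed the adjusted threshold (limma, adjusted p 0.0478 and 6.15e-10). With so few libraries the block leaves almost no replicate spread to estimate, so these p-values do not measure agreement between the Klk1 replicates. Leaving out the WT pro-B library gave no value for pro-B genotypes or the difference of effects, and a group left with 1 library was assumed to vary like the others.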
